A study of Mus musculus with 6 samples.

Results

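The Hedgehog pathway genes Shh, Ptch1, Smo, Gli1, Gli2, Gli3, Hhip, Sufu and Boc were taken by name from a table of 23934 genes, and all 9 were present. The table holds RNA sequencing values of sorted skin cells from mice with tdTomato, a red fluorescent reporter protein, in samples labelled day 50. The 3 control samples are labelled Zfp750 wt/fl in 2 cases, with Rosa26 -/-, and wt/wt in the third, with Rosa26 +/-. The 3 knockout samples are labelled Zfp750 fl/fl and Rosa26 -/-. All 6, controls included, carry Lrig1-CreER or Lrig1-CreERT2 as +/-, a tamoxifen-activated recombinase driven from the Lrig1 gene, and all were given 4-hydroxytamoxifen on days 4 to 7 or 5 to 8 of age. Lrig1 is known from the upper hair follicle. Reporters such as tdTomato are often placed at Rosa26, yet 5 of the 6 samples are labelled Rosa26 -/-, and where the reporter sits in those mice cannot be read from the labels. Libraries carry the names of their table columns, S2 to S4 for controls and S5 to S7 for knockouts, because those names show the group but match no single sample. Where 3 values of a group are listed, they follow the order of these library numbers.

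Hedgehog signalling passes from a secreted ligand to transcription in a responding cell. Without ligand, the receptor Ptch1 holds the membrane protein Smo inactive. Once a ligand such as Shh binds Ptch1, Smo is released and the Gli transcription factors are freed from their inhibitor Sufu at the primary cilium. Gli1, Ptch1 and Hhip are themselves transcribed in response, which makes them common readouts of the pathway, and Ptch1 and Hhip then restrain it by binding ligand. Boc, Cdon and Gas1 are coreceptors that present ligand to Ptch1. In skin, Shh from the growing hair follicle acts on follicle cells and on the dermal papilla and is known for its part in hair growth.

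Among the 8 members tested, a single change stood out in size: Hhip, the decoy receptor, was 15.7-fold lower in the knockout by group means. Boc, a coreceptor, was 1.72-fold higher. These were the 2 members called among the 8 that passed the filter on low values, 1 in each direction, where a call is a limma adjusted p under 0.05 over all 15935 tested genes. Over all tested genes 6.71% were called, 4.12% higher and 2.59% lower in the knockout. With 8 members, 2 calls make 25%, and the median log2 fold change of the 8 was -0.21 against 0.01 over all tested genes. The table was normalized by the authors per library and not per gene length, and log2 fold changes are on the scale of log2(value + 9.145). The other 6 members tested, Ptch1, Smo, Gli1, Gli2, Gli3 and Sufu, were not called, and Shh was too low to be tested. In the plot of the 9 genes by library, 3 of the 8 tested members had groups that did not overlap (Hhip, Ptch1 and Boc), or 37.5%, against 28.8% of all tested genes.

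**Figure D1:**
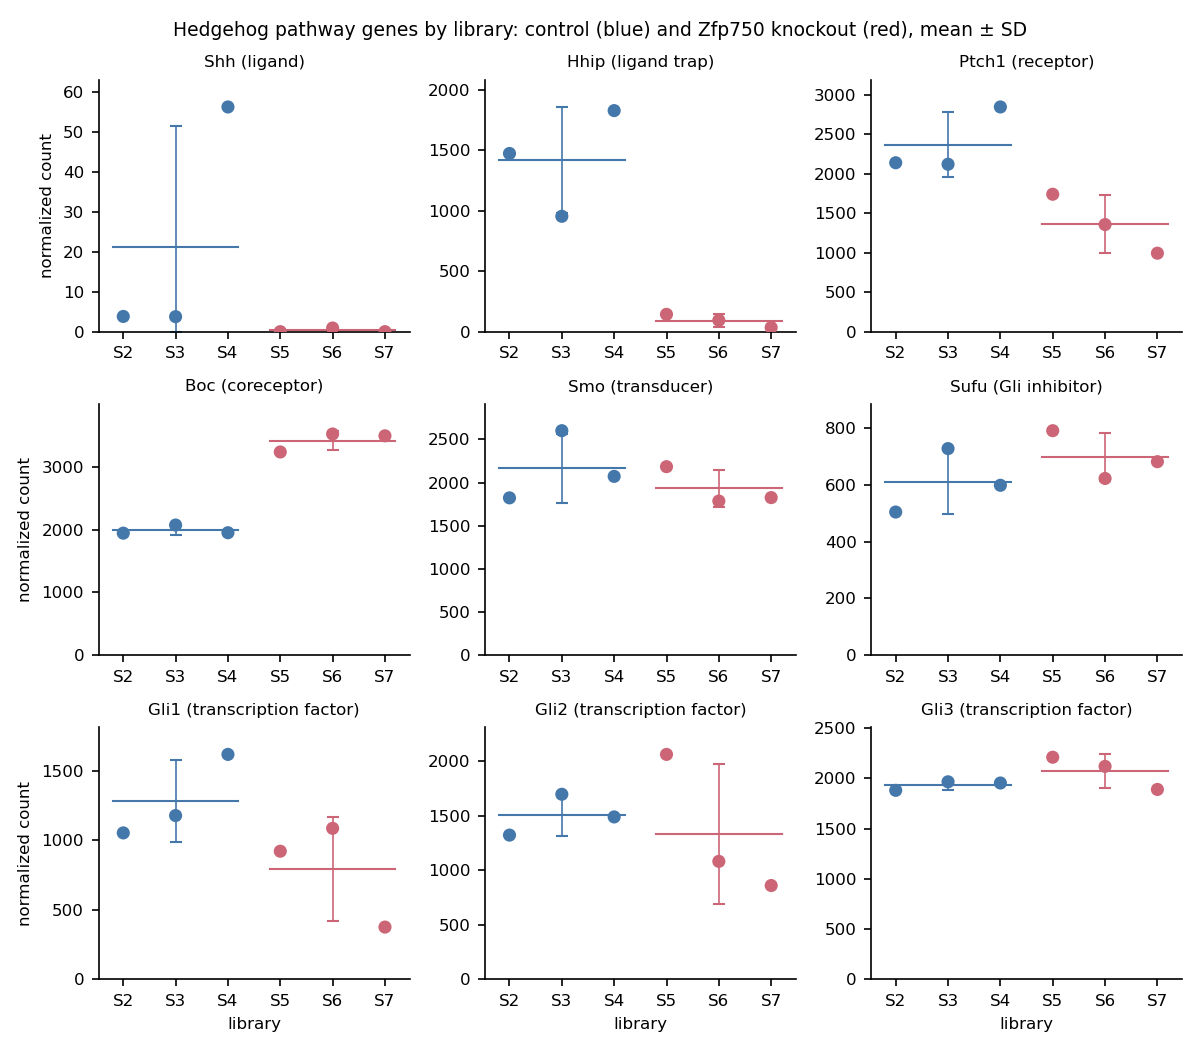
Normalized count (vertical axes, from 0) of each Hedgehog pathway gene in the 3 control libraries (blue) and the 3 Zfp750 knockout libraries (red). Points are libraries, horizontal lines group means and bars 1 SD, cut at 0 where the SD exceeds the mean. Hhip lies between 34.2 and 143 in the knockouts and between 953 and 1826 in the controls, Boc is higher in every knockout library, and Shh exceeds 3 reads only in control S4.

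Some facts of the libraries bear on these values. Depth was 15310182 to 20705366 estimated reads. Zfp750 itself was at 41.9, 3.75 and 314 (controls) against 4.9, 1.82 and 7.16 (knockouts), so S3, the library labelled control, lies inside the knockout range and this gene does not check its label. S3 also held the least keratinocyte transcript, with 62.5 for Krt5, 17.5 for Krt14 and 691 for the summed list, against 4635 and 20196 for the list in S2 and S4, and the part of this in its Zfp750 value was not tested. For Hhip (953), Gas1 (5572), Ccnd1 (2585) and Pdgfra (11482) S3 lay with the other controls. These genes were called with S3 counted as a control, so they cannot check its label. Without S3 Hhip (log2 fold change -4.24, limma adjusted p = 0.0112) and Boc (0.81, adjusted p = 0.0468) were still called. Which stretch of Zfp750 is removed in the knockout was not among the details used here. The libraries held much dermal transcript. The 8 fibroblast markers summed to 2247470 to 6570946 (controls) against 739038 to 1004996 (knockouts). Most of each sum came from Col1a1 and Col3a1, neither of them called (limma adjusted p = 0.237 and 0.325). Other markers on the list differed in direction, with means of 177109 (controls) and 84085 (knockouts) for Dcn, 13612 and 13598 for Dpt and 1503 and 2092 for Twist2. The basal keratinocyte gene Krt5 was at 62.5 to 11805 and 885 to 8559. Lrig1 was present in all libraries, at 585 to 2089. In these bulk libraries, fewer cells of a type and less RNA per cell cannot be told apart. The authors' scaling set the direction of calls in part. Higher and lower genes numbered 657 and 413 as deposited, 1057 and 283 with all libraries brought to a common total, 566 and 605 when the 10 highest genes were left out of that total, and 573 and 544 with a common upper quartile. The common total moved the median log2 fold change of all tested genes to 0.31, and every change below is meant relative to the deposited scale.

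Since Ptch1 and Hhip restrain the pathway and are also its targets, the sequence just before their start sites is given, together with that of Gli2, the only member whose window holds a Gli-type motif. RefSeq start windows on GRCm38.p6 were found for 6 of the 9 members (Ptch1, Smo, Gli2, Gli3, Hhip and Sufu). Each line below runs 5′ to 3′ on the gene's own strand and covers the 250 bases before the start (for Ptch1, a start inside the annotated gene), with capitals for a match to a motif. Hhip lies at chr8:80058009-80058258, minus strand, Ptch1 at chr13:63565736-63565985, minus strand and Gli2 at chr1:119053620-119053869, minus strand. These GRCm38.p6 positions do not match the coordinates that the table of values gives for these genes, so they cannot be set beside those.
Hhip: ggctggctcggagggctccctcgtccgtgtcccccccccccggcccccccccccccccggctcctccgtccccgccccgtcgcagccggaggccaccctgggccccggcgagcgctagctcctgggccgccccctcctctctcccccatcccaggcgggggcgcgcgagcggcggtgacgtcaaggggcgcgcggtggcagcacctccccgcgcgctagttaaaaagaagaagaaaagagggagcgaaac
Ptch1: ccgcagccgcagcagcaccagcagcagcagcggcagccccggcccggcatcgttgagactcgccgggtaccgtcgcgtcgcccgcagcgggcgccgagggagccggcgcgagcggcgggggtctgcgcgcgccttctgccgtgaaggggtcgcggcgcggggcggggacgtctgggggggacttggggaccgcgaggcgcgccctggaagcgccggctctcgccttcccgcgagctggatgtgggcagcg
Gli2: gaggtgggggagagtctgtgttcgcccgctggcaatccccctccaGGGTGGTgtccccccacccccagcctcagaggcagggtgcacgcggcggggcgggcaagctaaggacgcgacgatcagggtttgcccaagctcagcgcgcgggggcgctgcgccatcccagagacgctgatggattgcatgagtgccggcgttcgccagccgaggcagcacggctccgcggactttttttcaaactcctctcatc
The motifs searched on both strands were the Gli consensus GACCACCCA (reverse complement TGGGTGGTC) and the shorter ACCACCC (reverse complement GGGTGGT), which lies inside it. The consensus was in 0 of the 6 member windows and in 0.225% of all 32851 windows. The shorter motif was in the Gli2 window only, as its reverse complement, and in 3.92% of all windows. The Hhip and Ptch1 windows were rich in G and C, at 76.0% and 78.4%, against a median of 52.4% over all windows.

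Among the ligand genes, Shh was almost absent. Shh (ENSMUSG00000002633) encodes the Sonic hedgehog ligand. It was at 3.81, 3.75 and 56.3 (controls) against 0, 0.911 and 0 (knockouts), which stand for 3, 3 and 67 estimated reads and for 0, 1 and 0. Control S4 alone held more than a floor of 3 reads, with an exact 95% Poisson interval of 51.9 to 85.1 reads for counting error only. The intervals of S2 and S3, 0.619 to 8.77 reads each, overlapped those of every knockout library, where 0 reads allows up to 3.69. Shh did not pass the filter. Fitted with all genes kept, Shh had a log2 fold change of -1.23 ± 0.58 (SE; limma adjusted p = 0.284), and without control S4 it was -0.44 (adjusted p = 0.247).

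Control S4 was also the library with the most hair matrix and inner root sheath transcript, the follicle layers formed in growing hair. The inner root sheath keratin gene Krt71 was at 77.5, 2.5 and 1059 (controls) against 0, 0 and 6.36 (knockouts). The first genes of the marker list, Msx2 and Foxn1, were at 140 and 96.7 in S4 and at no more than 41.9 and 16.5 elsewhere. Krt25, another inner root sheath keratin, was at 6.35, 2.5 and 406 and at 1.96, 1.82 and 0. The 8 markers on that list summed to 357, 117 and 3065 (controls) against 185, 453 and 1207 (knockouts). 0 of its 3 tested genes were called, against 6.71% of all tested genes. Krt71, Krt25, Krt27 and Foxn1 were each listed at 0 in at least 1 library. The part of these follicle transcripts in the Shh value of S4 was not tested. Krt71 and Krt25 were chosen after their values were seen.

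**Figure D2:**
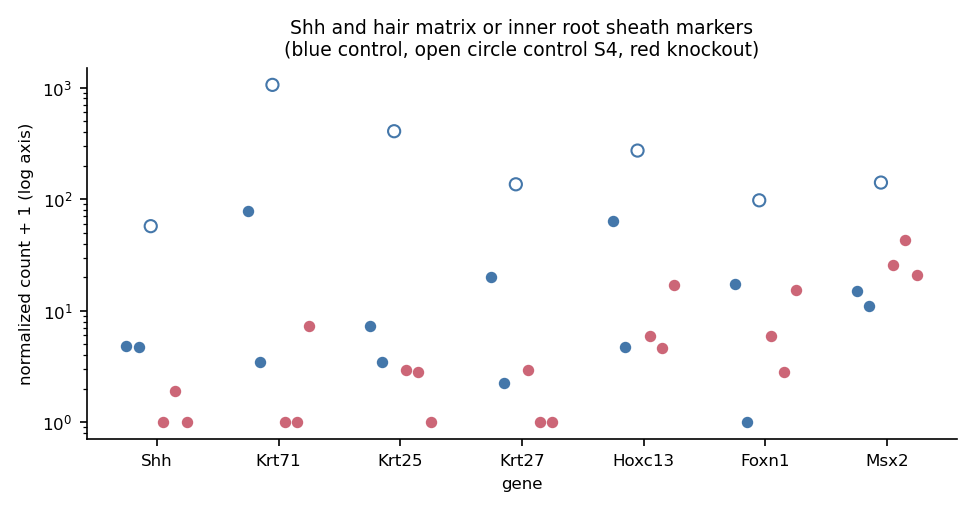
Normalized count + 1 (log axis) of Shh and 6 hair matrix or inner root sheath markers in each library. Open circles are control S4, filled blue points the other controls and red points the knockouts. S4 is the highest library for all 7 genes drawn. Of the other 2 listed markers, Tchh is highest in S4 and Gata3 in S7 (1111, against 754 in S4).

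The other ligands were low as well. Dhh, the ligand known from Schwann cells, was at 56.4 ± 19.8 (controls) against 53.2 ± 21.3 (knockouts; SD, n = 3 each), with overlapping groups. Ihh, known from cartilage, reached at most 6.35 in any library. Of 8 genes for the ligands and their processing and release, 6 were tested, 0 rose and 1 fell, with a median log2 fold change of -0.30. The 1 call is 16.7%, against 6.71% of all tested genes. The gene that fell was Disp1, whose product releases lipid-modified ligand from the cells that make it. Disp1 was at 1172, 1396 and 889 (controls) against 578, 304 and 316 (knockouts), and the groups did not overlap. Its log2 fold change was -1.55 ± 0.29 (SE; limma adjusted p = 0.023). Disp1 missed the threshold when S2 (adjusted p = 0.0993), S3 (0.0707), S6 (0.0959) or S7 (0.0754) was left out. Hhat, which attaches palmitate to the ligand, was at 169 ± 30.4 and 185 ± 64.3 (SD, n = 3 each; adjusted p = 0.895). Dhh, Ihh and Hhat were chosen after their values were seen.

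Among the genes of ligand reception, the 2 called members changed in opposite directions. Hhip (ENSMUSG00000064325, chromosome 8, 80692480 to 80784635 on the minus strand in the table's own coordinates) encodes a membrane protein that binds Hedgehog ligands without passing on a signal. Its normalized counts were 1472, 953 and 1826 (controls) against 143, 93.9 and 34.2 (knockouts). The lowest control lay far above the highest knockout, and S7 was the lowest of all libraries. The knockout values stand for 146, 103 and 43 estimated reads, so they are low but well above the floor of 3 reads. The log2 fold change was -3.97 ± 0.46 (SE; 95% interval -5.05 to -2.89; limma adjusted p = 0.00468). Only 13 of the 15935 tested genes had a more negative one. The call held without any 1 library, with log2 fold changes of -4.36 to -3.46 and adjusted p-values of 0.00431 to 0.0316, and under the 3 other scalings (-4.03 to -3.67).

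Ptch1 (ENSMUSG00000021466, chromosome 13), the receptor itself, was lower in every knockout library but was not called. It was at 2140, 2121 and 2847 (controls) against 1741, 1357 and 994 (knockouts). The groups did not overlap, with means of 2369 ± 414 against 1364 ± 373 (SD, n = 3 each). The log2 fold change was -0.82 ± 0.24 (SE; 95% interval -1.36 to -0.27; limma adjusted p = 0.0885). The interval is for a single gene and is not adjusted over genes. Without any 1 library the adjusted p was 0.0537 to 0.217.

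Hhip thus differed far more than Ptch1, which a ratio within each library shows without regard to scaling. Hhip over Ptch1 was 0.688, 0.449 and 0.641 (controls) against 0.0823, 0.0692 and 0.0344 (knockouts). This ratio and those below were chosen after the values were seen and are given with no test.

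Boc (ENSMUSG00000022687, chromosome 16, 44305412 to 44379260 on the minus strand in the table's own coordinates), a cell surface coreceptor of the immunoglobulin superfamily, was tight within each group. It was at 1942, 2071 and 1949 (controls) against 3232, 3518 and 3489 (knockouts). Every knockout library lay above every control. The log2 fold change was 0.78 ± 0.14 (SE; 95% interval 0.46 to 1.10; limma adjusted p = 0.0192). The size of the change held without any 1 library, at 0.75 to 0.82, but Boc missed the threshold when S2 (adjusted p = 0.0993), S6 (0.0852) or S7 (0.0706) was left out.

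The other coreceptor genes, on the list of 8 for reception, differed from Boc in size or in sign. Gas1, a membrane-anchored coreceptor, rose from 4673, 5572 and 4784 (controls) to 17418, 11791 and 13914 (knockouts). Its log2 fold change was 1.5 ± 0.21 (SE; limma adjusted p = 0.00827), and the call was lost only without S2 (adjusted p = 0.0583). The noncoding gene Gm48488 overlaps Gas1 on the other strand and was at 247 to 316 (controls) against 495 to 683 (knockouts). No source used here says whether reads were counted by strand. Cdon, the closest relative of Boc, had the other sign: 5191, 7570 and 4995 (controls) against 4381, 2310 and 2165 (knockouts). Cdon was not called (log2 fold change -1.05 ± 0.31 SE, adjusted p = 0.0915), but it was without S5 (adjusted p = 0.0257) and when libraries were brought to a common total without the 10 highest genes (adjusted p = 0.0499). Of 7 tested genes for reception 2 rose, Gas1 and Boc, and 1 fell, Hhip. These are 28.6% and 14.3%, against 4.12% and 2.59% of all tested genes. The groups did not overlap for 6 of the 7, or 85.7%, against 28.8% of all tested genes, and the median log2 fold change was -0.82. Cdon was chosen after its values were seen.

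Per length, Gas1 made up more of the summed coreceptor level in every knockout library than in any control. Divided by kilobases of annotated exon, Gas1 made up 58.7%, 56.5% and 59.8% of the Boc, Cdon and Gas1 total in controls S2, S3 and S4 and 82.0%, 78.5% and 81.5% in knockouts S5, S6 and S7. Cdon made up 26.2% ± 2.9 in the controls and 6.2% ± 1.5 in the knockouts (SD, n = 3 each). Boc had a share of 15.5% ± 1.3 and 13.1% ± 2.8, with overlapping groups, although its own level was higher, since the summed level of all 3 went from 2687 to 3328 per kilobase in the controls to 5072 to 7177 in the knockouts.

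**Figure D3:**
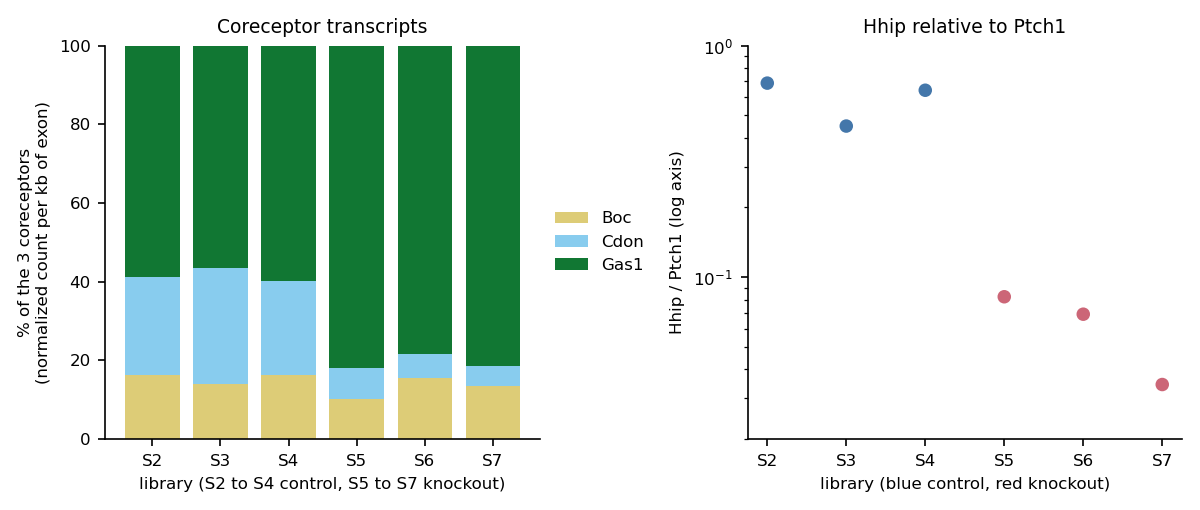
Left, share of the coreceptor genes Boc, Cdon and Gas1 in their summed normalized count per kilobase of exon, in percent, for each library. Right, normalized count of Hhip over that of Ptch1 on a log axis (blue control, red knockout). Gas1 takes 56.5% to 59.8% of each control and 78.5% to 82.0% of each knockout library, and the Hhip to Ptch1 ratio is at least 0.449 in the controls and at most 0.0823 in the knockouts.

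Markers of dermal cells differed in both directions beside the coreceptors. Of 8 tested fibroblast markers 1 rose, 1 fell and 6 had a negative log2 fold change, with a median of -0.98. The calls are 12.5% in each direction, against 4.12% higher and 2.59% lower over all tested genes. The 1 that rose was Pdgfra, a receptor gene of dermal fibroblasts, at 10932, 11482 and 10886 (controls) against 29489, 23877 and 25506 (knockouts). Its log2 fold change was 1.24 ± 0.21 (SE; limma adjusted p = 0.0165), and Pdgfra missed the threshold without S2 (adjusted p = 0.101), S6 (0.061) or S7 (0.0626). The 1 that fell was Cd34, a call lost without S2, S6, S7 or S3 (adjusted p = 0.0975, 0.0925, 0.0768 and 0.0551). The matrix proteoglycan gene Dcn was at 96490 to 236142 (controls) against 67603 to 98647 (knockouts) and was not called (adjusted p = 0.300). None of the 8 genes was at 0 in any library. Relative to Pdgfra within each library, Boc was lower in the knockouts, at 0.11 to 0.147 against 0.178 to 0.18. Gas1 was higher, at 0.494 to 0.591 against 0.427 to 0.485, and Hhip was lower, at 0.00134 to 0.00485 against 0.083 to 0.168. Members that were not called were lower on this scale too, since Pdgfra itself rose: Ptch1 over Pdgfra was 0.039 to 0.059 against 0.185 to 0.262, Smo 0.0716 to 0.0749 against 0.167 to 0.227, and Gli3 0.0741 to 0.0888 against 0.171 to 0.179. Of 9 tested dermal papilla and sheath markers 1 rose, Crabp1, and 1 fell, Lepr, which is 11.1% in each direction. The first genes of that list, Corin and Alx4, were not called: Corin was at 853, 105 and 558 (controls) against 414, 37.4 and 3.98 (knockouts), and Alx4 at 257 to 587 against 500 to 903. The summed level of that list was 7279 to 10357 and 6548 to 8938. The call of Lepr was lost without S3, S6 or S7 (adjusted p = 0.0551, 0.0718 and 0.0825). The part of dermal cell makeup in the Hhip, Boc and Gas1 values was not tested.

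Among the genes that carry the signal inside the cell none was called, against 6.71% of all tested genes. Smo (chromosome 6), the membrane protein that Ptch1 restrains, was at 1824, 2602 and 2073 (controls) against 2185, 1787 and 1827 (knockouts), with overlapping groups. Its log2 fold change was -0.15 ± 0.18 (SE; 95% interval -0.58 to 0.27; limma adjusted p = 0.662), with a positive sign at a common total, 0.17. Sufu (chromosome 19), which holds the Gli proteins in check, was at 504, 727 and 598 and at 790, 622 and 681. The log2 fold change of Sufu was 0.20 ± 0.19 (95% interval -0.23 to 0.63; adjusted p = 0.568). On the deposited scale the intervals of both genes, not adjusted over genes, exclude a doubling and a halving. At a common total the log2 fold change of Sufu was 0.52 ± 0.21 (SE; limma adjusted p = 0.156).

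The Gli genes differed among themselves mainly in their spread. Gli3 (chromosome 13), known chiefly as the repressor of the family, was at 1881, 1966 and 1954 (controls) against 2211, 2120 and 1890 (knockouts), a log2 fold change of 0.10 ± 0.14 (SE; 95% interval -0.23 to 0.42; adjusted p = 0.723). Gli2 (chromosome 1), known chiefly as an activator, was at 1322, 1697 and 1489 and at 2063, 1081 and 859. Knockout S5 was thus the highest and S7 the lowest of all 6 libraries for Gli2, and the log2 fold change was -0.26 ± 0.31 (95% interval -0.99 to 0.46; adjusted p = 0.66), with a positive sign at a common total, 0.06. Gli1 (chromosome 10), an activator that is also a target of the pathway, was at 1054, 1179 and 1620 (controls) against 922, 1087 and 375 (knockouts). Its groups overlapped, since knockout S6 lay above control S2. Arhgap9, which overlaps Gli1 on the other strand, was at 16.2 to 80.7 (controls) against 21.6 to 152 (knockouts). The log2 fold change was -0.80 ± 0.39 (95% interval -1.71 to 0.11; adjusted p = 0.271), and it was -0.33 without knockout S7 (adjusted p = 0.513). Per length, Gli1, Gli2 and Gli3 took 37.7% ± 5.1, 32.4% ± 3.4 and 29.9% ± 2.7 of their sum in control libraries, against 27.1% ± 8.9, 33.3% ± 8.0 and 39.6% ± 9.0 for knockouts (SD, n = 3 each). Gli1 over Gli3 was 0.56, 0.6 and 0.829 (controls) against 0.417, 0.513 and 0.199 (knockouts).

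The wider list from Smo to the Gli proteins held 19 genes, all tested. By the limma test 0 rose and 0 fell, against 4.12% and 2.59% of all tested genes. At an unadjusted p under 0.05 there were 2, and the median log2 fold change was -0.01. The groups did not overlap for 21.1% of the list, against 28.8% of all tested genes. The arrestin gene Arrb1, chosen after its values were seen, was called lower at a common total without the 10 highest genes, at a common upper quartile and without S4 (adjusted p = 0.0246, 0.0397 and 0.0341) and had an adjusted p of 0.0714 as deposited. The kinase gene Csnk1a1, which marks Gli proteins for processing, was at 4511 ± 202 (controls) against 5029 ± 225 (knockouts; SD, n = 3 each; adjusted p = 0.576). Gsk3b, a kinase with the same role, was at 3127 ± 508 and 3088 ± 328 (adjusted p = 0.977). In the plot of fold changes by list the transduction genes lie between -0.92 and 0.64, and the reception and target genes spread further.

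**Figure D4:**
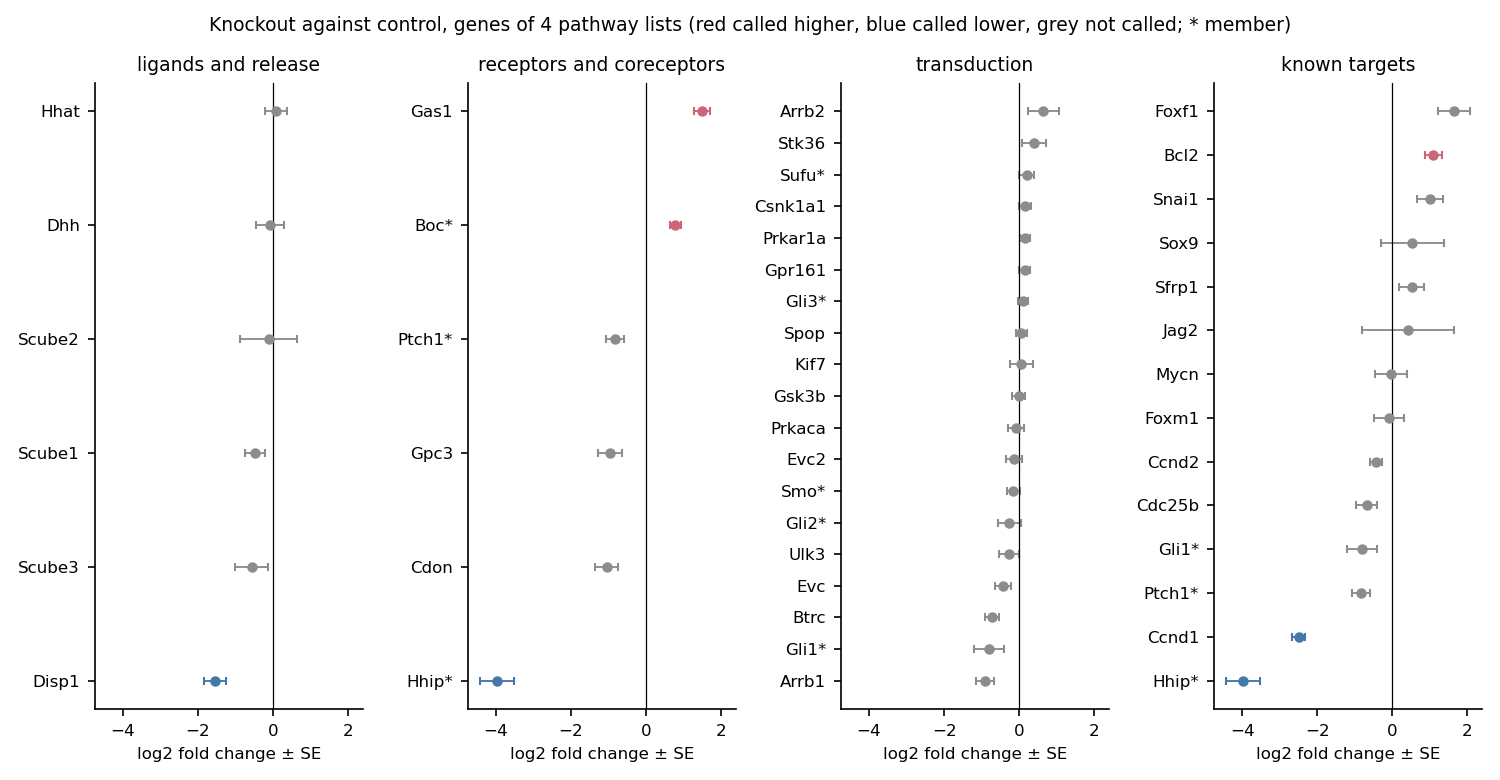
Log2 fold change (knockout against control, horizontal axis) with its limma standard error for the genes drawn from the ligand, reception, transduction and target lists. Red genes were called higher, blue genes lower and grey genes were not called, and asterisks mark the 8 tested members. The 19 transduction genes lie between -0.92 and 0.64, and Hhip is the lowest gene shown.

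The known targets of the pathway gave calls in both directions. Of 17 genes listed as targets in at least 1 tissue, 15 were tested, 1 rose and 2 fell, with a median log2 fold change of -0.08. These calls are 6.67% and 13.3%, against 4.12% and 2.59% of all tested genes. Beside Hhip, the cyclin gene Ccnd1, which drives entry into the cell cycle and answers to several pathways, fell from 2268, 2585 and 2557 (controls) to 504, 342 and 468 (knockouts). Its groups were far apart, and its log2 fold change was -2.49 ± 0.18 (SE; limma adjusted p = 0.000831), called without any 1 library. The survival gene Bcl2 rose from 775, 844 and 623 to 1410, 2124 and 1381 (1.10 ± 0.22, adjusted p = 0.0275), but Bcl2 missed the threshold when S2 (adjusted p = 0.102), S3 (0.052), S6 (0.0812) or S7 (0.0535) was left out. The related cyclin gene Ccnd2 was at 4720 ± 366 and 3473 ± 376 (SD, n = 3 each) and was not called (adjusted p = 0.153). Foxf1, a forkhead target in mesenchyme, was low, at 8.74 to 16 (controls) against 32.6 to 107 (knockouts). It was not called (adjusted p = 0.0611), except without S7 (adjusted p = 0.0443) or at a common total (adjusted p = 0.046). Ccnd2 and Foxf1 were chosen after their values were seen.

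Of 19 primary cilium genes, all tested, 0 rose and 1 fell, or 5.26%, against 4.12% higher and 2.59% lower over all tested genes. The median log2 fold change of the list was -0.20, against 0.01 over all tested genes, with 15 genes negative and 4 positive. The 1 gene called was Rpgrip1l, which encodes a protein of the ciliary transition zone. Rpgrip1l was at 774, 1739 and 755 (controls) against 248, 194 and 165 (knockouts), with groups far apart. Its log2 fold change was -2.28 ± 0.34 (SE; limma adjusted p = 0.0103), and the call was lost only without S6 (adjusted p = 0.0545). The other 18 lay between -0.61 and 0.56 on the log2 scale, among them the intraflagellar transport gene Ift88, also chosen after its values were seen, at 146 ± 23.7 and 132 ± 18.5 (SD, n = 3 each; adjusted p = 0.754). Over the 62 tested genes of all lists, members included, 3 rose and 4 fell, 4.84% and 6.45%, against 4.12% and 2.59% of all tested genes.

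Levels were compared between members per kilobase of exon. In the controls the order ran from Boc (446 ± 16.3) and Smo (385 ± 70.7) through Gli1 (257 ± 59.6), Gli2 (219 ± 27.4), Gli3 (202 ± 4.79), Ptch1 (167 ± 29.2) and Hhip (156 ± 48.4) to Sufu (79.3 ± 14.5) and Shh (7.48 ± 10.7), as normalized counts per kilobase (SD, n = 3). Ranges of 1 SD overlapped for each pair of neighbours down to Gli3 and for Ptch1 and Hhip, but not for Gli3 and Ptch1, Hhip and Sufu, or Sufu and Shh. In the knockouts the order was Boc (767 ± 35.4), Smo (344 ± 39.0), Gli3 (216 ± 17.3), Gli2 (194 ± 93.3), Gli1 (159 ± 74.6), Ptch1 (96.1 ± 26.3), Sufu (90.7 ± 11.1), Hhip (9.96 ± 6.01) and Shh (0.107 ± 0.185). There the ranges overlapped for the neighbours from Gli3 to Sufu. Hhip thus went from just under Ptch1 in the controls to below Sufu in the knockouts.

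Single libraries carried part of the pattern. Control S4 was the highest of the 6 libraries for Shh, Ptch1, Gli1 and Hhip. Knockout S7 was the lowest of the 6 for Ptch1, Gli1, Gli2, Hhip and Cdon. S7 also held the most leukocyte, endothelial, sebocyte and adipocyte transcript, with summed marker levels of 11078, 5489, 43598 and 2127. The other libraries held at most 7631, 1580, 10858 and 415. Sebocyte and adipocyte sums were also higher in S5 and S6 than in any control. For sebocytes they were 7288 and 10858 against 5058 to 6858, and for adipocytes 68.6 and 415 against 3.81 to 58.7. Most of the sebocyte sum in S7 was Scd1 (40054), not called. Of 5 tested sebocyte markers 2 rose, Elovl3 and Awat1 (limma adjusted p = 0.00827 and 0.0234), or 40.0%, against 4.12% of all tested genes. The other 3 were not called. By summed level the next highest for leukocytes was control S4, the library with the highest Ptch1, Gli1 and Hhip. Most of that sum was Cd74, at 5711 in S4 against 5516 in S7. The leukocyte gene Ptprc was at 1158 in S7, 679 in S6 and 579 in S4, and Cd3e at 256, 160 and 172. The endothelial genes Pecam1 and Cdh5 were at 2026 and 1006 in S7 and at 95 and 103 in S4. Vwf was also highest in S7 (2269), but Kdr, on the same list, was highest in control S3 (250, against 188 in S7). The part of these cells in the values of S7 was not tested. Without S7 the log2 fold change of Hhip was -3.46 (adjusted p = 0.00607) and that of Ptch1 -0.61 (adjusted p = 0.217).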

How the data were processed

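RNA of sorted mouse skin cells was sequenced in 3 control and 3 Zfp750 knockout samples. The authors deposited 1 table of normalized counts, used here as a signal in units of estimated reads over 1 factor per library, a reading taken from the values: 78.7% to 81.2% of low values were whole multiples of a step within 0.05. Because not all were whole, count models were not run. TopHat2 2.1.0 and Partek 9.0.20.0202 are named in the submitters' processing notes without a role. Build and annotation behind the table belong to the details not given in the sources used here, and its positions for Hhip, Ptch1 and Gli2 differ from those on GRCm38.p6. The table's start is its first base and its stop 1 past the last, so ends are given as stop minus 1. Whether the libraries come from different mice is not stated outright, and the p-values rest on a spread between libraries that may be technical.

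Groups were compared with limma 3.58.1 in R 4.3.3 (empirical Bayes with an intensity trend, 2-sided, Benjamini-Hochberg over 15935 genes) on log2(value + 9.145), the offset being 0.5 parts in 1e6 of the mean library total. A gene was tested if its value was at least 1 part in 1e6 of a library's own total in 3 or more libraries. The fit was also run on simulated counts, with the same biological spread for every gene and no scale difference between libraries. These settings are simpler than the data, so that run does not bear on the calls made here. Exon lengths came from GENCODE M21 on GRCm38, matched by gene ID for all 9 members. By rule the text names the members, the called genes of each pathway list or else its 2 highest, the first 2 genes of a marker list that a result touches, and the 3 genes most like Gli1; other genes were chosen after their values were seen. Of the listed genes 1 is counted in its lists but is not reported or drawn here. Members and lists were chosen with earlier results of these data known.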

Additional observations from a re-analysis of the deposited data

How the results depend on the processing

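The 7 pathway genes called, Hhip, Boc, Gas1, Disp1, Ccnd1, Bcl2 and Rpgrip1l, were called under all 9 other pseudocounts, filters, scalings and variance models tried with every library. At a common total 1057 genes were called higher over the whole table, 5 pathway genes were called higher (Foxf1 and Snai1 in addition), and the log2 fold changes of Smo and Gli2, not called, turned to 0.17 and 0.06, below the median of all genes there, 0.31. Leaving out 1 library at a time gave 231 to 684 genes higher and 92 to 587 lower over the table, with 325, 575, 334 and 498 in all without S2, S3, S6 and S7. It gave 1 to 2 members called, Hhip in each and Boc in 3 of 6 (log2 fold change 0.75 to 0.82), and 0 to 3 pathway genes higher and 2 to 6 lower. The count of higher pathway genes was 0 without S2 and 1 without S6. Ptch1 ranged from -1.01 to -0.61, Gli1 from -1.09 to -0.33 and Shh, unfiltered, from -1.69 to -0.44. With 2 libraries left in a group, the filter asked for 2. Shh was at 3 or fewer reads in 5 libraries. Among them S3 and S7 were deeper than S4, at 20705366 and 20222361 against 19224140 estimated reads. The value columns cannot be tied to the replicate numbers of the labels, so no pairing by the labels was possible. Their names start with numbers of their own, 2 of which recur in both groups (S2 with S6, S3 with S7). Deviations from the group means correlated at 0.25 and -0.22 over genes in these pairs, and at 0.41 for S4 with S7, which share no number, so the numbers were not taken as pairs. A replicate block on them was chosen after seeing the data. S4 and S5 each stand alone in their block, so its group effect rests only on S2 with S6 and S3 with S7. It is therefore no check on all 6 libraries. The block called 821 genes higher and 706 lower and 1 member, Hhip (-4.16, adjusted p = 0.00426), with Boc at 0.80 (adjusted p = 0.0557). It called 1 pathway gene higher and 6 lower.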

Other observations

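The 3 tested genes whose log2 levels followed Gli1 most closely over the 6 libraries, as a description without a test, were the splicing-related gene Sugp2 (Pearson r = 0.992), 2310057M21Rik (r = 0.985) and the bromodomain gene Brwd3 (r = 0.984). Each has its lowest level in knockout S7 and its highest in control S4, as Gli1 does. With 6 libraries such values are common: 168 tested genes had an r over 0.9 with Gli1. Sugp2 was at 510, 534 and 587 (controls) against 452, 518 and 320 (knockouts), a much narrower range than that of Gli1.

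Crabp1, which encodes a retinoic acid binding protein found in the dermal papilla, had the largest rise on the papilla and sheath list. It was at 191, 114 and 90.0 (controls) against 1536, 2750 and 2448 (knockouts). Its log2 fold change was 4.02 ± 0.32 (SE; limma adjusted p = 0.00111), and it was called without any 1 library (adjusted p = 0.00181 to 0.0106). Crabp1 was chosen after its values were seen.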
